A study of Mus musculus with 9 samples.

Results

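The genes described here are 10 genes known from the urothelium, followed through 3 epithelial structures of the embryonic mouse kidney. They are Trp63, Foxa1, Upk3a, Upk1a, Upk1b, Upk2, Ctse, Lgals3, Anxa1 and Plet1. They were chosen by symbol after earlier results of the same arrays had shown several of them to be bright in the collecting duct, so the contrasts with the collecting duct were used in choosing them and are given as a description without a test. The contrast between the nephron structures is the one tested. Of the 10 genes, 9 had a probe set annotated with exactly 1 symbol, 13 probe sets in all, and 8 passed the filter on low values with 9 probe sets. The table as a whole held 12393 such genes, of which 7998 were tested. Upk1b had no such probe set and was not analysed here.

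Transcripts were measured on Affymetrix MOE430A arrays in s-shaped bodies, renal vesicles and collecting ducts, 3 arrays per structure. A nephron passes through the renal vesicle, a hollow ball of young epithelium, and then folds into the s-shaped body, while the collecting duct is the branching tube that drains it and descends from the ureteric bud. All samples came from wild-type mice of strain 129 at E14.5 (Theiler stage 22), of unknown sex, and no group carried a treatment. Structures were dissected by morphology, with 20 s-shaped bodies or renal vesicles to a pool and a stated pool size of 1 for the collecting ducts, and all RNA went through 2 rounds of T7 amplification. The labels count each such sample as a biological replicate.

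The urothelium is the layered lining of the renal pelvis, ureter and bladder. The ureter and the collecting duct both arise from the ureteric bud, whereas the nephron arises from the mesenchyme around it. Basal urothelial cells carry p63, the product of Trp63, and the surface cells carry plaques of uroplakins, in which Upk1a pairs with Upk2 and Upk1b with Upk3a. Foxa1, together with Gata3 and Pparg, belongs to the transcription factors of urothelial differentiation.

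The promoters of 4 of the genes are shown, 2 of genes that were bright in the collecting duct arrays alone (Foxa1, Upk3a) and 2 of genes that differed most between the nephron structures (Anxa1, Plet1). Each is the 250 bases before the annotated start, 5′ to 3′ on the gene's strand, from RefSeq on GRCm38.p6. Foxa1 lies on the minus strand (chr12:57546112-57546361), Upk3a on the plus strand (chr15:85016891-85017140), Anxa1 on the minus strand (chr19:20390672-20390921) and Plet1 on the plus strand (chr9:50494275-50494524). Capitals mark matches to the motifs searched.
Foxa1: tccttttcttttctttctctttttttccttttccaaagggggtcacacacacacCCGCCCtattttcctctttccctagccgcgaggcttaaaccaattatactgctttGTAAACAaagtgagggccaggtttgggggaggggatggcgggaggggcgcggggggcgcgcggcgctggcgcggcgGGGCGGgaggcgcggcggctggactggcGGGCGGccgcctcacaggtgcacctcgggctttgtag
Upk3a: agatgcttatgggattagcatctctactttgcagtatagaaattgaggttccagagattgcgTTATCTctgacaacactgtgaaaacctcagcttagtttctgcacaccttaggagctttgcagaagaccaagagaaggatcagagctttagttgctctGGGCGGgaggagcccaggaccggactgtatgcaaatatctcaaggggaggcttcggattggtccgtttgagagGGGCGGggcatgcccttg
Anxa1: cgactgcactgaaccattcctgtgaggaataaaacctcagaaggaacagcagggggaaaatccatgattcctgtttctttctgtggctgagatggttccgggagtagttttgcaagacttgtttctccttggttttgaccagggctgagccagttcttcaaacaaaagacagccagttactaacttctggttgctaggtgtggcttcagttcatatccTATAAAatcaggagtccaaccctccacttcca
Plet1: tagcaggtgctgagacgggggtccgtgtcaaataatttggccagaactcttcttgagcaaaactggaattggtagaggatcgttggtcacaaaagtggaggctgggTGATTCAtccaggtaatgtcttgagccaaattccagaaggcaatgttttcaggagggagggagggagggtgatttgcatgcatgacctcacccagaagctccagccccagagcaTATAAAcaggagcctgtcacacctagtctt

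A window was found for 6 of the 10 genes. The shares of all windows given here are over 32851 windows, with those of a chromosome left out. The search covered 8 motifs on both strands, none of which overlapped in the windows shown. The forkhead core TGTTTAC was in 3.17% of all windows and, among the 6, in that of Foxa1, with its first base at position -141 from the start. The GATA core AGATAA was in 9.99% of all windows and in that of Upk3a, at position -188. The GC box GGGCGG, in 32.7% of all windows, was in those of Foxa1, Upk3a and Lgals3. The TATA box TATAAA, in 12.4% of all windows, stood at position -32 of Anxa1 and -30 of Plet1. Plet1 also held the AP-1 site TGANTCA (6.75% of all windows) at position -144. The grainyhead core AACNNGTT (3.64%), the E-box CACGTG (6.02%) and a p53 family pair, CATG and CATG with 6 bases between them (0.49%), were in none of the 6 windows. These matches describe the letters of the windows and nothing else.

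Values are deposited intensities on a linear scale, 1 per probe set and array, and differences are on log2(intensity + 26) after quantile normalization. Arrays of the same structure correlated at 0.939 to 0.982 across genes and arrays of different structures at 0.77 to 0.868. Renal vesicle replicate 3 stood apart from the other 2. Its Calb1, which encodes calbindin, was 8.58 log2 units against 12.60 and 13.18, and its Podxl, a podocyte gene, was 11.54 against 8.22 and 8.16. The summed intensity of 17 collecting duct trunk markers was 2239 to 2495 in the s-shaped bodies, 3628 to 16553 in the renal vesicles (lowest in replicate 3) and 40668 to 59371 in the collecting ducts. Calb1 made up 58.8% and 56.3% of the sums in renal vesicle replicates 1 and 2, and without it the other 16 markers summed to 2120 to 2366 in the s-shaped bodies, 3287 to 7229 in the renal vesicles and 40613 to 59299 in the collecting ducts. Of 16 tested trunk markers 12 were lower in renal vesicle than in collecting duct and 1 was higher, beside 15.9% and 15.6% of all genes. With any 1 array left out at least 14 were tested, and 10 to 12 were lower. The higher marker was Calb1, by 32.3-fold (log2 difference 5.01, SE 0.85, limma adjusted p = 0.00072), and without any 1 renal vesicle array it did not pass the filter on low values. Of the genes that define the trunk, Aqp2, the water channel of principal cells, differed by only -0.10 (SE 0.27) between renal vesicle and collecting duct and Hoxb7 by -0.35 (SE 0.23), neither past the threshold. Scnn1g, a sodium channel subunit, was 22.9-fold lower in renal vesicle than in collecting duct (log2 difference -4.52, SE 0.42, limma adjusted p = 6.1e-06), and -3.87 without renal vesicle replicate 3. Scnn1g and Elf5, another trunk marker, passed the filter through the collecting duct arrays alone and so had to be higher there.

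Trp63, the p63 transcription factor of basal cells in layered epithelia, was bright in the collecting duct arrays alone. Its intensity was 34.3, 48.9 and 43.3 in the s-shaped bodies, 57.3, 82.7 and 46.2 in the renal vesicles, and 2985, 2756 and 1760.4 in the collecting ducts. The collecting ducts lay far above both nephron structures, whose deposited intensities overlapped at a dim level. After normalization the s-shaped bodies lay just below the renal vesicles without overlap, at 6.22 against 6.25 log2 units at the closest. The log2 difference was -5.22 (SE 0.22) for s-shaped body minus collecting duct and -4.75 (SE 0.22) for renal vesicle minus collecting duct. The other 2 probe sets of Trp63 were dim everywhere, the first between 2.15 and 10.34 on all arrays and the second between 2.92 and 61.78. The Trp63 signal therefore rests on 1 of 3 probe sets, and what the others match was not analysed here. Trp73, a p53 family relative, stayed between 18.6 and 85.8 on all 9 arrays.

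Foxa1, a forkhead factor that opens chromatin in many endodermal and urogenital epithelia, had the lowest difference from the collecting duct of all 7998 genes in both nephron structures. Its intensity was 20.9, 33.0 and 41.6 in the s-shaped bodies, 29.1, 84.0 and 52.0 in the renal vesicles, and 8822, 11208 and 11507 in the collecting ducts. The nephron arrays were dim, and the 2 nephron structures overlapped both in deposited intensity and after normalization. The log2 difference was -7.60 (SE 0.23) for s-shaped body minus collecting duct and -7.04 (SE 0.23) for renal vesicle minus collecting duct. Since the nephron levels are close to the added 26, these differences are compressed. Its relatives were dim, Foxa2 between 75.4 and 187.6 and Foxa3 between 59.9 and 115.6.

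The uroplakins, the membrane proteins of the surface plaques, did not behave alike. Upk3a had intensities of 8.22, 23.15 and 14.9 in the s-shaped bodies, 17.2, 34.2 and 46.8 in the renal vesicles, and 638, 769 and 477 in the collecting ducts. It was low in every nephron array and higher in every collecting duct array, with log2 differences of -3.97 (SE 0.26) for s-shaped body and -3.39 (SE 0.26) for renal vesicle minus collecting duct. Upk2 had 291, 164 and 374 in the s-shaped bodies, 235, 295 and 237 in the renal vesicles, and 286, 399.7 and 259 in the collecting ducts. All 3 structures overlapped for Upk2, and its log2 differences from the collecting duct were -0.22 (SE 0.26) for s-shaped body and -0.15 (SE 0.26) for renal vesicle.

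Upk1a was above its array's median on only 2 arrays and was not tested. Its intensity was 40.9, 71.8 and 62.8 in the s-shaped bodies, 39.8, 91.2 and 58.1 in the renal vesicles, and 143, 139 and 108 in the collecting ducts. The collecting duct arrays were the highest, at a level close to the array medians of 112.2 to 144.8. Upk3b, a further uroplakin gene that is not among the 10, was 2.81-fold higher in s-shaped body than in renal vesicle (log2 difference 1.49, SE 0.26, adjusted p = 0.00071) and 8.23-fold lower in renal vesicle than in collecting duct (log2 difference -3.04, SE 0.26). Thus Upk3a and Upk3b were higher in the collecting duct arrays than in the renal vesicles, Upk2 overlapped between them, and Upk1a was too dim to test.

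Ctse encodes cathepsin E, an aspartic protease of endosomes. Its intensity was 421, 403 and 488 in the s-shaped bodies, 118, 139 and 102 in the renal vesicles, and 7744, 8084 and 7064 in the collecting ducts. The 3 structures did not overlap, with the s-shaped bodies between the others. The log2 difference was -4.16 (SE 0.18) for s-shaped body minus collecting duct and -5.69 (SE 0.18) for renal vesicle minus collecting duct. A second probe set of Ctse was near 10 intensity units in all 3 structures, averaging 9.65 ± 5.67 in the s-shaped bodies, 11.3 ± 3.4 in the renal vesicles and 11.9 ± 3.4 in the collecting ducts (SD, n = 3 each), so this pattern too rests on 1 probe set.

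Lgals3 encodes galectin-3, a lectin that binds beta-galactosides and is known from the ureteric bud and its derivatives. Its intensity was 279.9, 255 and 303 in the s-shaped bodies, 36.7, 47.5 and 13.2 in the renal vesicles, and 3168, 3335 and 4359 in the collecting ducts. Again the s-shaped bodies lay between renal vesicles and collecting ducts without overlap. The log2 difference was -3.62 (SE 0.23) for s-shaped body minus collecting duct and -5.91 (SE 0.23) for renal vesicle minus collecting duct.

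Anxa1 encodes annexin A1, which binds membrane phospholipids in the presence of calcium. Its intensity was 4437, 3724 and 4059 in the s-shaped bodies, 235, 462 and 36.1 in the renal vesicles, and 5829, 5444 and 5115 in the collecting ducts. The s-shaped bodies stood close to the collecting ducts, and the renal vesicles were far lower and spread widely, with replicate 3 the lowest. The log2 difference was -0.47 (SE 0.53) for s-shaped body minus collecting duct and -4.78 (SE 0.53) for renal vesicle minus collecting duct.

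Plet1 encodes a membrane-anchored glycoprotein first described in placenta and known as a marker of some epithelial progenitors. Its brighter probe set had 31.5, 19.7 and 5.31 in the s-shaped bodies, 244, 387 and 254 in the renal vesicles, and 3278, 3443 and 3410.5 in the collecting ducts. Here the renal vesicles lay between the other structures. The log2 difference was -6.30 (SE 0.24) for s-shaped body minus collecting duct and -3.37 (SE 0.24) for renal vesicle minus collecting duct. The second probe set had 159, 89.1 and 147 in the s-shaped bodies, 196, 186 and 201 in the renal vesicles, and 392, 329 and 470.3 in the collecting ducts. It gave the same order with smaller log2 differences, -1.46 for s-shaped body and -0.82 for renal vesicle minus collecting duct.

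**Figure D1:**
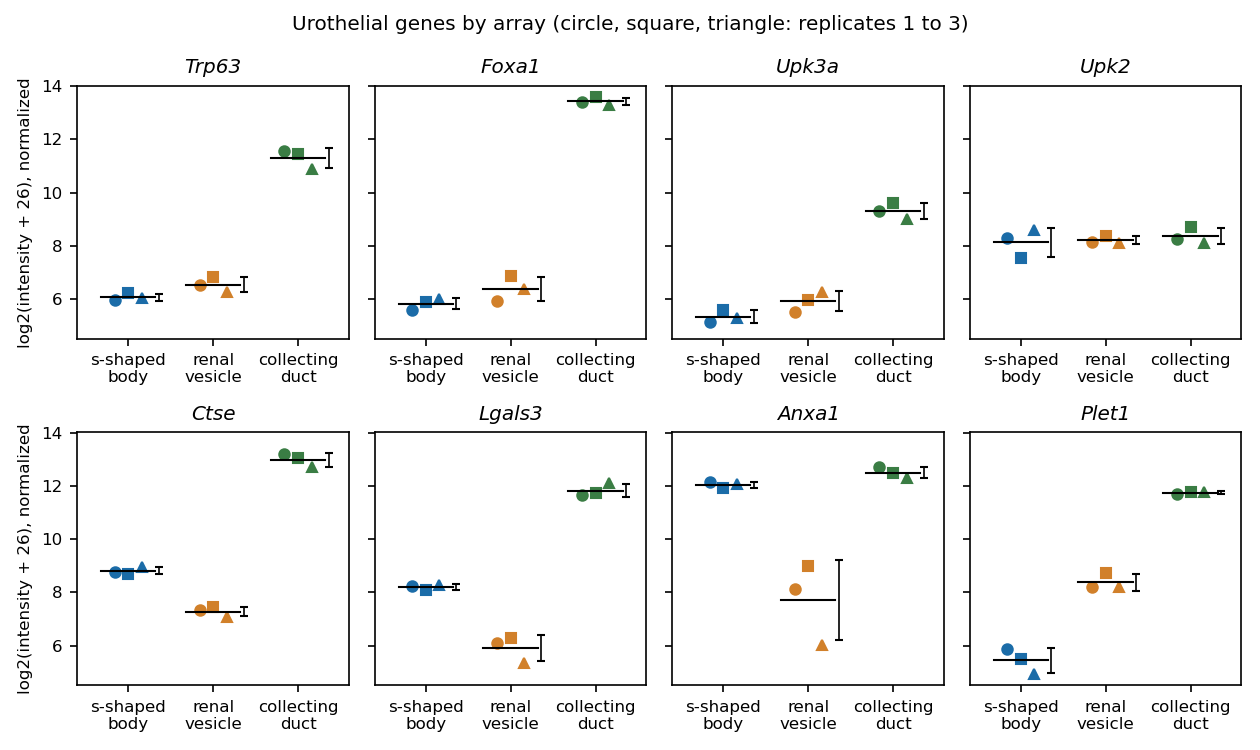
Normalized log2(intensity + 26) of the 8 tested genes on each array, by structure (s-shaped body, renal vesicle, collecting duct), with replicates 1 to 3 as circle, square and triangle, the mean as a line and the SD as a bar. Trp63, Foxa1 and Upk3a are high in the collecting duct alone, Upk2 is level at means of 8.14, 8.21 and 8.36, and the other 4 differ between the nephron structures as well.

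Because of how the genes were chosen, nothing is read from how many of them were low against the collecting duct. All but Upk2, 7 of 8, had every s-shaped body array below every collecting duct array, as did 22.6% of all genes, and the same 7 had every renal vesicle array below every collecting duct array, as did 22.1% of all genes. Both comparisons use the same collecting duct arrays. Trp63, Foxa1 and Upk3a passed the filter through the 3 collecting duct arrays alone and so had to differ. Without any 1 collecting duct array these 3 drop out, and 4 of the remaining 5 genes lay below the collecting ducts in each comparison. In whole structures such as these, fewer cells that express a gene and less of its RNA per cell cannot be told apart. The median over the 8 genes was -4.06 for s-shaped body and -4.77 for renal vesicle minus collecting duct, beside -0.03 and 0.01 over all genes.

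**Figure D2:**
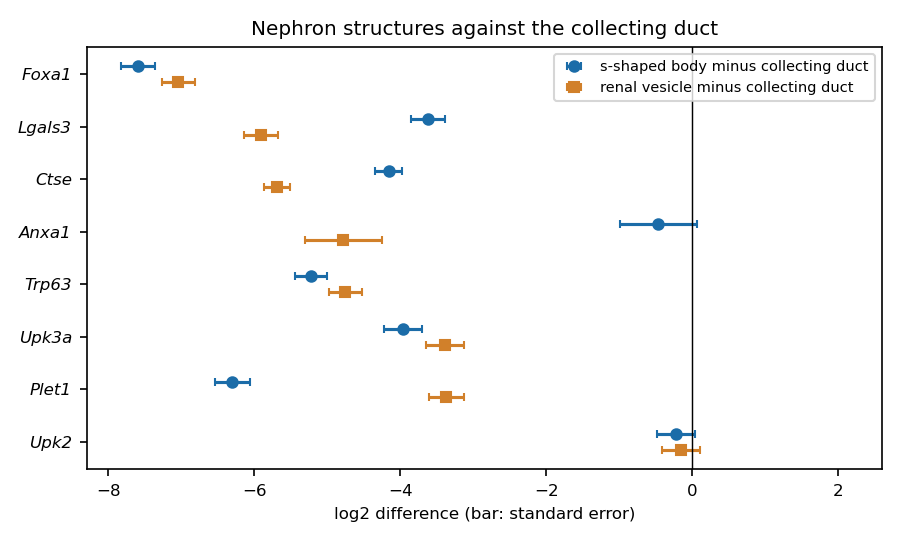
Log2 differences of the 8 genes from the collecting duct, s-shaped body as circles and renal vesicle as squares, with the standard error as a bar. Foxa1 has the lowest values (-7.60 and -7.04), Upk2 lies near 0 in both, and Anxa1 is near 0 in the s-shaped body alone (-0.47).

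Between s-shaped body and renal vesicle, a comparison that the choice of genes did not use, 4 of the 8 genes differed: Anxa1, Lgals3 and Ctse were higher in the s-shaped body and Plet1 was lower. Over all genes 36.3% differed in this comparison, 18.5% higher and 17.8% lower, and the count over the 8 genes is to be read beside that. Anxa1 was higher by 19.9-fold (log2 difference 4.31, 95% interval 3.17 to 5.46, limma adjusted p = 5.5e-05), the 20th largest rise of 7998 genes. It was 3.46 without renal vesicle replicate 3 and 4.93 without renal vesicle replicate 2, and all 3 s-shaped body arrays lay above all 3 renal vesicle arrays. Lgals3 was 4.88-fold higher (log2 difference 2.29, 95% interval 1.78 to 2.79, adjusted p = 1.3e-05). Ctse was 2.89-fold higher (log2 difference 1.53, 95% interval 1.13 to 1.93, adjusted p = 4.7e-05). Without renal vesicle replicate 3, which was the lowest renal vesicle array for Lgals3 and Ctse too, the values were 2.01 for Lgals3 and 1.43 for Ctse, both still past the threshold.

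Plet1 was 7.64-fold lower in the s-shaped body (log2 difference -2.93, 95% interval -3.45 to -2.42, adjusted p = 2.4e-06), the 30th largest fall. With the mean of its 2 probe sets in place of the brighter one the difference was -1.79, also past the threshold.

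For Trp63, Foxa1, Upk3a and Upk2 no difference between the nephron structures passed. The log2 difference of s-shaped body minus renal vesicle was -0.47 for Trp63 (95% interval -0.96 to 0.02, limma adjusted p = 0.12). Foxa1 gave -0.55 (interval -1.05 to -0.06, adjusted p = 0.078), and -0.70 with adjusted p = 0.046 once renal vesicle replicate 1 was left out. Upk3a gave -0.58 (interval -1.15 to -0.002, adjusted p = 0.11). Upk2 gave -0.07 (interval -0.64 to 0.49, adjusted p = 0.86). These intervals are not adjusted for the number of genes, and for the first 3 they cover dim values near the added 26, where a true difference would be compressed.

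**Figure D3:**
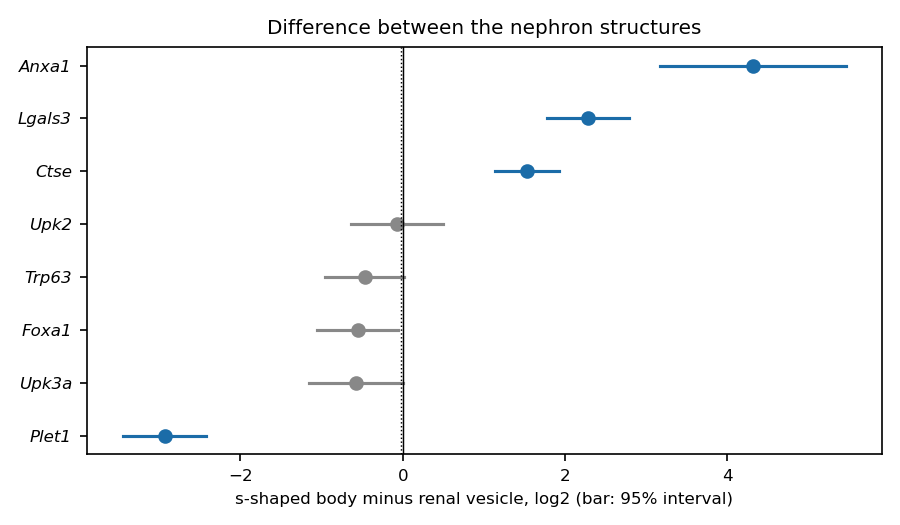
Log2 difference of s-shaped body minus renal vesicle for the 8 genes, with 95% intervals as bars (blue: adjusted p under 0.05, grey: not) and the median of all genes, -0.03, as a dotted line. Anxa1, Lgals3 and Ctse lie to the right at 4.31, 2.29 and 1.53, and Plet1 to the left at -2.93.

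Transcripts of other cells moved with this comparison. The summed intensity of 9 endothelium markers was 22633 to 29070 in the s-shaped bodies and 4875 to 10069 in the renal vesicles, against 390 to 572 in the collecting ducts. These nephron sums mainly follow Cldn5, at 13.91, 14.01 and 14.17 log2 units in the s-shaped bodies and 12.05, 12 and 13.11 in the renal vesicles. In the renal vesicles Kdr stood at only 7.17, 7.34 and 6.9. Of the tested endothelium markers 7 of 7 were higher in s-shaped body than in renal vesicle (4 of 4 without any 1 s-shaped body array), beside 18.5% of all genes. Kdr, a VEGF receptor of endothelium, was 18-fold higher (adjusted p = 9.7e-08, log2 difference 4.17, SE 0.18). The 14 macrophage markers summed to 3616 to 4407 in the s-shaped bodies, 772 to 1195 in the renal vesicles and 1141 to 1183 in the collecting ducts. In the s-shaped bodies most of that sum was Csf1r, a receptor of macrophages, which was 10.7-fold higher in s-shaped body than in renal vesicle (log2 difference 3.42, SE 0.24, adjusted p = 9.5e-07), while 12 of the 14 did not pass the filter, among them C1qa at 9.05 to 73.0 and Lyz2 at 12.8 to 150.1 over all arrays.

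The 6 erythroid markers summed to 21089 to 23747 in the s-shaped bodies, 477 to 2778 in the renal vesicles and 118 to 2475 in the collecting ducts. Hbb-y, a globin gene, made up 81.2% to 88.1% of the s-shaped body sums and 62.5% to 91.3% of the renal vesicle sums. Without Hbb-y the ranges were 2826 to 3959, 135 to 314 and 113 to 162, so renal vesicle and collecting duct still overlapped. The 14 markers of ureter mesenchyme and smooth muscle summed to 7976 to 8041, 5033 to 5360 and 3385 to 3494 in the same order of structures. Ptch1 was the brightest of them, with mean log2 levels of 11.96, 11.966 and 11.337, and Acta2 followed at 11.635, 8.635 and 7.709. Ptch1 hardly differed between the nephron structures (log2 difference -0.007, SE 0.13). Acta2, smooth muscle actin, was 8-fold higher in s-shaped body than in renal vesicle (SE 0.17 on the log2 scale, adjusted p = 2.7e-07), while Tbx18, which marks the mesenchyme around the ureter, stayed between 3.24 and 35.5 on all arrays. Transcripts listed for the ureteric tip went the other way in part. The 7 tip markers summed to 389 to 540 in the s-shaped bodies, 2264 to 3094 in the renal vesicles and 493 to 854 in the collecting ducts. Lhx1, which nephron epithelium also uses, made up 66.7% to 76.3% of the renal vesicle sums. Without Lhx1 the ranges were 306 to 443 in the s-shaped bodies, 537 to 965 in the renal vesicles and 460 to 849 in the collecting ducts, so renal vesicle and collecting duct overlapped. Ret, the receptor of the ureteric tip, was near the array medians in every structure (87.0 to 182.1). Wnt11, a tip signal, averaged 7.08 ± 0.33 in the s-shaped bodies, 8.53 ± 0.67 in the renal vesicles and 6.98 ± 0.16 in the collecting ducts (log2, SD, n = 3 each). Cdh1 and Epcam, adhesion genes of most epithelia, were 12.4-fold (log2 difference -3.63, SE 0.24) and 12.7-fold lower (-3.67, SE 0.29) in s-shaped body than in renal vesicle, as Plet1 was. The Gapdh probe sets at the 3′ and 5′ ends of the transcript, whose ratio is larger for shorter RNA, gave 20.0 to 32.4 in the s-shaped bodies, 11.9 to 14.54 in the renal vesicles and 11.6 to 18.6 in the collecting ducts. For Actb the 3′ to 5′ ratio did not set the structures apart, with 30.1 to 50.9 in s-shaped body, 32.2 to 41.2 in renal vesicle and 34.1 to 42.5 in collecting duct arrays. The part of these cells and of RNA length in the differences of Anxa1, Lgals3, Ctse and Plet1 was not tested.

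The relatives of Anxa1, Lgals3 and Ctse were set beside them. Of the 8 other annexins tested, 6 were higher in s-shaped body than in renal vesicle, Anxa9 was lower and Anxa8 did not pass, with a median of 1.95 beside -0.03 over all genes. Among all genes 18.5% were higher and 17.8% lower. Anxa2 was 11-fold higher (adjusted p = 1.5e-06), a log2 difference of 3.46 with an SE of 0.26. The call for Anxa9 (-0.77, SE 0.25, adjusted p = 0.029) was lost under 8 alternatives, leaving out any s-shaped body array or renal vesicle replicate 1 or 2 among them. All 8 were lower in renal vesicle than in collecting duct, where 15.9% of all genes were lower and 15.6% higher. Anxa8 and Anxa9 passed the filter through the collecting duct arrays alone and so had to be higher there. Without any 1 collecting duct array 6 were tested and all 6 were lower. Anxa8, known from layered epithelia, had the widest gap of the 8, 13.6-fold (log2 difference -3.77, SE 0.25).

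Of the 3 other galectins tested, 2 were higher in s-shaped body than in renal vesicle, beside 18.5% of all genes. Lgals1 was 10.6-fold higher (adjusted p = 1.3e-05), a log2 difference of 3.403 with an SE of 0.34. Lgals8 was 2.01-fold higher (adjusted p = 0.00068), a difference of 1.01 with an SE of 0.17. Lgals1 was not bright in the collecting duct, at 12.39 ± 0.28 log2 units in the s-shaped bodies, 8.99 ± 0.69 in the renal vesicles and 8.71 ± 0.57 in the collecting ducts (SD, n = 3 each), an order unlike that of Lgals3.

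The 8 other cathepsins tested had a median of 0.86 for s-shaped body minus renal vesicle. Of them 6 were higher in s-shaped body and 0 were lower, beside 18.5% and 17.8% of all genes. Without s-shaped body replicate 1 the count was 3 of 7. Ctss, a cathepsin of macrophages and other antigen-presenting cells, was 3.72-fold higher (adjusted p = 0.00048, log2 difference 1.89, SE 0.31). Ctsh, a lysosomal cysteine protease, was 2.36-fold higher in s-shaped body than in renal vesicle (1.24, SE 0.23) and 5.26-fold lower in renal vesicle than in collecting duct (-2.40, SE 0.23), the order that Ctse showed with wider gaps. Tetraspanins are the family to which Upk1a and Upk1b belong. Of 19 tested, 10 were higher and 2 lower in s-shaped body than in renal vesicle, beside 18.5% and 17.8% of all genes.

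**Figure D4:**
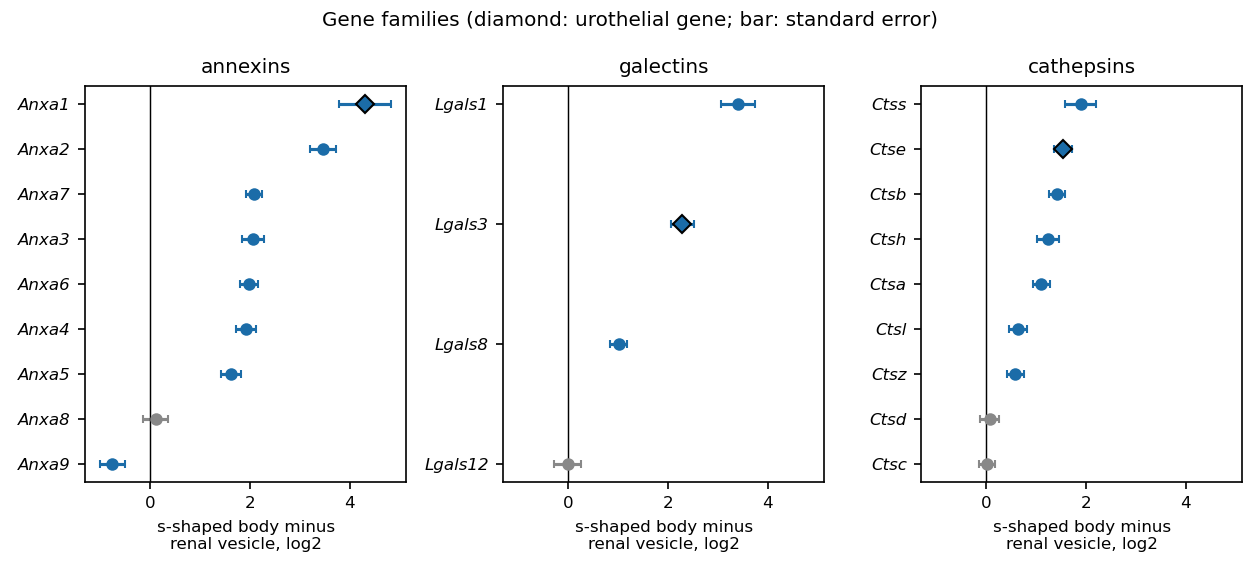
Log2 differences of s-shaped body minus renal vesicle for the tested annexins, galectins and cathepsins, with the standard error as a bar, the urothelial gene of each family as a diamond, and genes past the threshold in blue. Anxa1 has the highest value among the annexins (4.31), while Lgals1 (3.403) and Ctss (1.89) lie above Lgals3 (2.29) and Ctse (1.53).

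Further genes of the urothelium were taken from lists written with results of these arrays known. Of 21 tested urothelial regulators outside the 10 genes, 15 were lower and 1 higher in s-shaped body than in collecting duct, where 15.9% of all genes were lower and 16.9% higher. In renal vesicle 18 were lower than in collecting duct and 1 was higher, Bmp4, a signal of mesenchyme, beside 15.9% and 15.6% of all genes. Leaving out each array in turn left at least 20 tested, with 15 to 18 lower in renal vesicle. Foxq1, 1 of the 21, passed the filter through the collecting duct arrays alone and so had to be higher there. Gata3 and Wnt7b also stand in the list of collecting duct trunk markers, and without these 2 the counts were 14 lower and 1 higher in s-shaped body and 16 lower and 1 higher in renal vesicle, of 19 tested. Pparg, a nuclear receptor of urothelial differentiation, was 12.2-fold lower in renal vesicle than in collecting duct (log2 difference -3.60, SE 0.25), and Gata3, a zinc-finger factor of the ureteric bud lineage, was 7.15-fold lower (-2.84, SE 0.45, and -3.49 without renal vesicle replicate 2). Klf5, a zinc-finger factor of urothelium and other epithelia, was 8.79-fold lower (-3.14, SE 0.23), on a probe set that passed the filter through the collecting duct arrays alone. Without any 1 collecting duct array another of its probe sets stood for the gene and gave -1.501 to -1.42. Ehf, an ETS factor of epithelia, was 10.1-fold lower (-3.33, SE 0.42) and Tbx3, a T-box repressor, 12-fold lower (-3.59, SE 0.54). Without renal vesicle replicate 3 these were -2.67 for Ehf and -2.71 for Tbx3, and without replicate 2 Tbx3 was -4.20. Elf3, an ETS factor of urothelial and other epithelia, had a small gap, 1.55-fold (-0.63, SE 0.16, adjusted p = 0.0095). Grhl3 had no probe set to analyse here.

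Between the nephron structures these 21 regulators went both ways, 4 higher and 7 lower in s-shaped body than in renal vesicle. Without renal vesicle replicate 1 the counts were 6 and 4. They are to be read beside the 18.5% of all genes that were higher and the 17.8% that were lower. Pparg was 4.17-fold higher in s-shaped body (log2 difference 2.06, SE 0.25, adjusted p = 5.2e-05) and Gata3 3.64-fold higher (1.86, SE 0.45, adjusted p = 0.0064), or 2.52 without renal vesicle replicate 2. Both had the order of Ctse and Lgals3, with the collecting ducts highest and the renal vesicles lowest, but smaller gaps below the collecting duct. For s-shaped body minus collecting duct Pparg gave -1.545 (SE 0.25) and Gata3 -0.97 (SE 0.45), the latter not past the threshold.

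Of 20 tested genes of urothelial differentiation, 19 were lower and 1 higher in s-shaped body than in collecting duct, and 18 were lower and 0 higher in renal vesicle than in collecting duct. In both comparisons 15.9% of all genes were lower. With each array left out in turn at least 17 were tested, and 15 to 19 were lower in either comparison. The list holds genes of epithelia in general, and 4 of the 20 (Krt8, Krt18, Aqp3 and Cdh1) are also trunk markers. Over the other 16, 15 were lower and 1 higher in s-shaped body, and 14 were lower and 0 higher in renal vesicle. Krt19, a keratin of simple and layered epithelia, was 112-fold lower in renal vesicle than in collecting duct (log2 difference -6.81, SE 0.41). Krt19 passed the filter through the collecting duct arrays alone and so had to be higher there. Krt7, a keratin of ducts and urothelium, was 27.8-fold lower in renal vesicle than in collecting duct (-4.80, SE 0.24), 7.86-fold higher in s-shaped body than in renal vesicle (2.98, SE 0.24, adjusted p = 2.2e-06), and stood at 10.59 ± 0.15 log2 units in the s-shaped bodies, 7.62 ± 0.38 in the renal vesicles and 12.42 ± 0.40 in the collecting ducts (SD, n = 3 each). Rab27b, a vesicle GTPase that takes part in uroplakin delivery, was 10.8-fold lower in renal vesicle than in collecting duct (-3.43, SE 0.31). Like Krt19, it passed the filter through the collecting duct arrays alone. Krt20, a keratin of umbrella cells, did not pass the filter, at 35.9, 32.6 and 39.5 intensity units in the s-shaped bodies, 37.9, 45.6 and 26.5 in the renal vesicles and 203, 123 and 172 in the collecting ducts.

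Genes of basal and layered epithelia, which often accompany Trp63, were a mixed group. Of 31 listed, 16 were tested, and 9 were lower and 1 higher in renal vesicle than in collecting duct, where 15.9% of all genes were lower and 15.6% higher. With each array left out in turn at least 14 were tested, and 6 to 9 were lower. In s-shaped body 9 were lower than in collecting duct and 4 higher, beside 15.9% and 16.9% of all genes. The 4 were Dst (1.465), Itga6 (1.174), Itgb1 (1.154) and Itga3 (0.859). Between the nephron structures 6 were higher and 4 lower in s-shaped body, beside 18.5% and 17.8% of all genes. Perp, a desmosomal gene known as a p63 target, was 25.5-fold lower in renal vesicle than in collecting duct (log2 difference -4.67, SE 0.20). The desmosomal cadherin Dsc2 was 11-fold lower (-3.45, SE 0.30) and the laminin chain Lamb3 10.4-fold lower (-3.38, SE 0.30). Lamb3 passed the filter through the collecting duct arrays alone and so had to be higher there. The basal keratins Krt5, Krt14 and Krt15 were not among the tested genes. Krt5 lay between 13.1 and 67.5 and Krt14 between 55.8 and 117.0 intensity units on all 9 arrays, with the structures overlapping. Krt15 was 124, 114 and 18.2 in the collecting ducts and at most 19.5 elsewhere, so replicate 3 of the collecting duct was dim for it. Shh, a signal that urothelium sends to the ureter wall, was listed at 2.03 to 37.3 on all arrays. Of 6 other tested genes of its pathway, 4 were higher and 0 lower in renal vesicle than in collecting duct, beside 15.6% and 15.9% of all genes.

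The genes whose pattern over the 9 arrays was most like each member were found by the root mean square difference of log2 levels, each gene centred on its own mean. Trp63 was most like Adh1, an alcohol dehydrogenase gene (0.27), Perp (0.32) and Tmprss2, a membrane protease gene (0.33). Foxa1 was most like Krt19 (0.69), Tesc (1.05) and Krt8 (1.15). Upk3a was most like Crybg1 (0.32), Klf5 (0.32) and Slc26a2, a sulfate transporter gene (0.33). Ctse was most like Tmem45b (0.61), Parm1 (0.66) and Efemp1 (0.68). Lgals3 was most like Krt7 (0.81), Igfbp5 (0.81) and Slc40a1 (0.83), and Anxa1 was most like Emp1 (0.79), Cav2 (0.86) and Krt7 (0.86). Plet1 was most like Ripk4, a kinase gene of epidermal differentiation (0.35), the keratin gene Krt18 (0.47) and the claudin gene Cldn7 (0.51). Upk2, which hardly varied, was most like Zfp109 (0.15), Sfrp4 (0.15) and Psors1c2 (0.17). Krt7 is thus near both Lgals3 and Anxa1, and no other gene was named for more than 1 member.

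Each collecting duct replicate was also set against the other 2. After quantile normalization replicate 3 was the lowest collecting duct array for 6 of the 8 genes, beside 38.1% of all genes, and replicate 1 for Lgals3 and Plet1. On the deposited intensities replicate 3 was lowest for 5 genes, beside 37.9% of all genes, and highest for Foxa1 and Lgals3. Trp63, Upk3a, Upk2, Ctse and Anxa1 were lowest in replicate 3 on both scales. Trp63 showed the widest range, 11.55, 11.46 and 10.87 log2 units in replicates 1 to 3, an SD of 0.37. Upk3a, at 9.31, 9.62 and 9, and Upk2, at 8.26, 8.71 and 8.11, both had their highest value in replicate 2 and an SD of 0.31. Lgals3 went the other way, at 11.64, 11.73 and 12.09, with replicate 3 the highest. Plet1 was almost the same in all 3, at 11.70, 11.77 and 11.77 (SD 0.04), and its SD was at the 2.4th percentile of all genes. The median SD of the 8 genes was 0.24 in the collecting duct beside 0.26 over all genes, 0.34 beside 0.19 in the renal vesicle, and 0.17 beside 0.19 in the s-shaped body. Replicate 3 had the highest sum of trunk markers, 59371, against 40668 and 43844 in replicates 1 and 2. Replicate 2 stood apart in erythroid transcripts, whose markers summed to 157, 2475 and 118 in replicates 1 to 3, and of that Hbb-y, an embryonic globin gene, gave 1.48, 2313 and 5.3. The part of either in the values of Trp63, Upk3a and Upk2 was not tested.

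**Figure D5:**
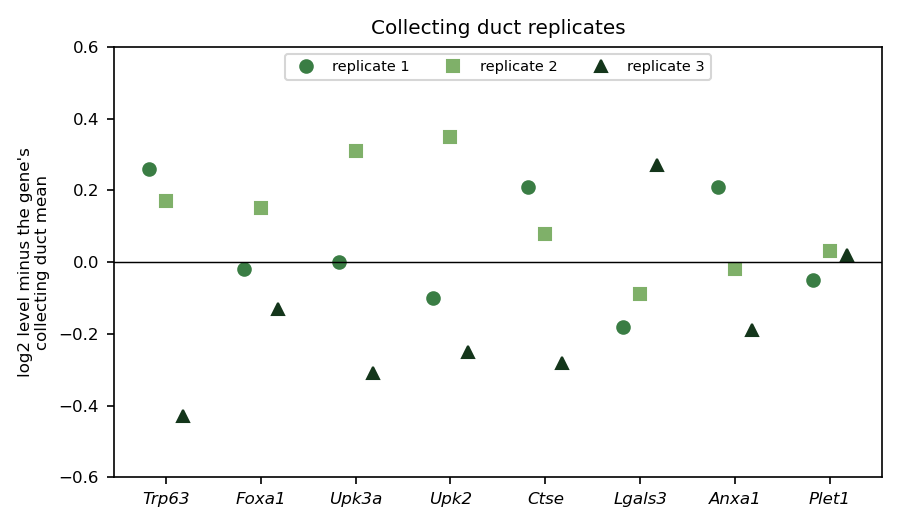
Log2 level of each gene in each collecting duct replicate minus the gene's collecting duct mean, with replicates 1 to 3 as circle, square and triangle. On this quantile normalized scale replicate 3 is lowest for 6 of the 8 genes and highest for Lgals3 (0.27), while on the deposited intensities it is lowest for 5 and also highest for Foxa1, and the 3 replicates of Plet1 lie within a range of 0.07.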

How the data were processed

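Intensity values, 1 per probe set and array for 22690 probe sets, were deposited by the authors on a linear scale. Per the submitters' processing notes they come from GCOS, whose version and algorithm are not given in the sources used here. Trimmed array means of 500.19 to 500.25 show that the deposited intensities share a scale. Genes were named through the platform annotation (20380 probe sets with exactly 1 symbol, without 64 controls).

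A pseudocount of 26 (the 20th percentile) was added before log2, and the arrays were quantile normalized because their medians differed by up to 0.31, above a limit of 0.25. Probe sets above their array's median in at least 3 arrays were kept (11597), and the brightest probe set stood for each gene. All 9 arrays were fitted in limma 3.58.1 (R 4.3.3; lmFit, eBayes with trend, 6 residual degrees of freedom), two-sided, with Benjamini-Hochberg adjustment over 7998 genes and a threshold of 0.05. The procedure was tested on simulated data. Arrays give no counts, so their number limits the precision, and p-values measure the spread between samples as pooled.

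The genes and lists were chosen with earlier results of these data known. Beside the 10 genes, the text names the list genes with the widest differences past the threshold, fixed defining genes, whole families and, for each gene, the 3 most alike. The choice of Kdr, Cldn5, Cdh1, Epcam, Calb1, Lhx1, Hbb-y, Podxl, C1qa, Lyz2, Ptch1, Elf5 and Foxq1 was made after their values were seen. So was that of the sums without Calb1, Lhx1 or Hbb-y, the counts without trunk markers and the replicate order on deposited intensities. Alternatives were other pseudocounts, normalizations, filters, probe set rules and variance models, only the groups compared, a replicate block and leaving out each array. Promoters are RefSeq windows on GRCm38.p6.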

Additional observations from a re-analysis of the deposited data

How the results depend on the processing

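The calls of Anxa1, Lgals3, Ctse and Plet1 between s-shaped body and renal vesicle held under each of the 20 alternatives run, with log2 differences of 3.46 to 4.93, 1.85 to 2.75, 1.43 to 1.67 and -3.69 to -1.79. The small difference of Upk2 changed sign. For s-shaped body minus renal vesicle it was 0.043 with a pseudocount of 64, 0.042 with no further normalization, and -0.304 to 0.226 with each array left out in turn. Leaving out arrays likewise gave Upk2 -0.455 to 0.075 for s-shaped body minus collecting duct and -0.278 to 0.025 for renal vesicle minus collecting duct, and Aqp2 -0.238 to 0.081 for the last. The causes were not tested.

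A filter of 6 arrays left 5 of the 8 genes, and then 4 lay below the collecting duct in each comparison. The other lists then had 58 genes past the threshold for s-shaped body minus renal vesicle, 52 for renal vesicle minus collecting duct and 62 for s-shaped body minus collecting duct, against 91, 91 and 109. Over all genes this filter left 6893 to test against 7998, with 2424, 2148 and 2029 past the threshold, against 2905, 2519 and 2626. How many list genes were left to test is not given here. Leaving out each array gave 4 to 7 genes below the collecting duct in each comparison, since only 5 then pass without a collecting duct array. With no filter Upk1a gave -0.17 between s-shaped body and renal vesicle (adjusted p = 0.71). Median centring gave 1560 genes higher and 1045 lower in renal vesicle than in collecting duct, against 1250 and 1269, and moved the median of all genes to 0.11.

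Deviations of same-numbered arrays from their structure means correlated at -0.034 to 0.161. Differently numbered arrays were not set beside them, so these values cannot tell whether the numbers pair the samples. With a replicate block 5 of the 8 genes differed between s-shaped body and renal vesicle, Foxa1 (-0.55, adjusted p = 0.050, just under the threshold) being added, and 2997 genes in all against 2905.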
